A study of Mus musculus with 11 samples.

Results

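Cluster 5 of the authors' clustering held 5993 of the 110304 nuclei of this brain single-nucleus RNA series. Its nuclei were taken by the deposited cluster number alone, whatever class name the authors' annotation had given them. The names were mixed: 4286 nuclei (71.5%) were named Neurons, 913 (15.2%) Astrocytes and 779 Oligodendrocytes, and 5 other names covered 8, 3, 2, 1 and 1 nuclei. The annotation uses 10 class names, none of which is an oligodendrocyte precursor. Precursor markers nevertheless led the genes that set cluster 5 apart, and 1 sub-cluster, of 1899 nuclei, was precursor-like by its own leading genes.

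The labelled genotype is hTfR KI HOM, a homozygous knock-in of the human receptor for transferrin (TfR), while the deposited metadata give the strain as C57BL/6J. The labels give the brain region as posterior and the metadata give the tissue as cortex, a conflict that could not be settled here. Dosing was intravenous, 4 times in every mouse, with collection at 72 h from the final dose. ATV:BACE1, at 57 mg/kg, is a TfR-binding antibody with no oligonucleotide and served as the control (n = 3). Its name also gives BACE1, a target not named for the other groups. Contrasts against this control therefore differ in that too, and its part in them was not tested. OTV:Malat1, at 60 mg/kg, carries an antisense oligonucleotide (ASO) against Malat1 on a TfR-binding molecule (n = 3). nonTV:Malat1, also at 60 mg/kg, carries it on a molecule without TfR binding (n = 3), and the Malat1 ASO group had the oligonucleotide without a carrier, at 2.5 mg/kg (n = 2). Each group had a female of 2.33 months (replicate 1) and a male of 2.33 months (replicate 5), and all but the Malat1 ASO group had a male of 2.57 months (replicate 4). The deposited batch number went with the replicate number, so batch, sex and age cannot be told apart.

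Oligodendrocyte precursor cells are the dividing glia that give rise to myelinating oligodendrocytes. They carry the receptor Pdgfra, which answers platelet-derived growth factor and sustains their proliferation, and the surface proteoglycan Cspg4 (NG2). When they leave the cycle they pass through a committed, premyelinating stage marked by Bmp4, Enpp6 and Bcas1, and then switch on myelin genes such as Mbp. Malat1 is an abundant long non-coding RNA that stays in the nucleus, where the RNase H that acts on ASO-bound RNA is also found.

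Libraries held between 7546 and 13840 nuclei and between 33235994 and 43972886 unique molecular identifier counts (UMIs). Cluster 5 gave between 398 and 729 nuclei and between 1826837 and 2637059 UMIs a library, with a median of 2870 UMIs a nucleus. Across the series, 1495 of 108788 barcodes occurred in more than 1 library, and 5 barcodes were found in cluster 5 nuclei of more than 1 library. The authors' doublet call, which marks droplets judged to hold more than 1 nucleus, covered 35.7% of cluster 5 and 10.4% of all nuclei.

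In the control libraries, Pdgfra led cluster 5, at 121 CPM (the count per 1e6 UMIs) beside 7.04 CPM in all other nuclei, a 17.2-fold difference. Vcan, a proteoglycan of the precursor's matrix, followed at 10.6-fold and Cspg4 at 10.02-fold. Emid1, Sema3d, Kank1, Tns3 and Arhgap31 came next, between 5.26-fold and 7.45-fold. Ptprz1, a receptor phosphatase of precursors and astrocytes, was 4.42-fold higher, and Sox6, a transcription factor that holds precursors undifferentiated, was 4.27-fold higher. The 20 leading genes held 5 from the precursor and committed precursor marker lists and none from the neuron lists. These genes made the cluster, so their ranks are a description and were not tested.

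Among the 6 marker genes chosen for cluster 5, 5 were higher there than in the other nuclei and Gad2 was not. These genes were chosen with earlier results of these data known, so this is a description and not a test. Over all libraries, Tnr, an extracellular matrix glycoprotein, stood at 1087 CPM in cluster 5 and 390 CPM elsewhere, and Lhfpl3 at 1261 CPM and 383 CPM. Gad2, which makes the transmitter of inhibitory neurons, stood at 41.8 CPM in cluster 5 and 79.4 CPM elsewhere. The general neuron genes were also lower, their 6-gene sum being 10975 CPM in cluster 5 and 15169 CPM in the other nuclei, while the 8-gene astrocyte sum was 2454 CPM against 946 CPM. Summed over its nuclei, cluster 5 held precursor, neuron and astrocyte RNA together.

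Clustering the nuclei of cluster 5 again, without Malat1, mitochondrial and sex-linked genes, gave 13 sub-clusters, several of which still held RNA of more than 1 of these cell types. Sub-cluster 0, with 1899 nuclei (31.7% of cluster 5, 13.4% of its UMIs), was oligodendrocyte precursor-like. Its leading genes were Pdgfra at 782 CPM beside 35 CPM in the rest of cluster 5, Cspg4, Emid1, Itga9, Susd5, Vcan and C1ql1, a complement-like protein secreted by precursors. It had a median of 1491 UMIs a nucleus, and 1.63% of its nuclei were called doublets. The authors' annotation named 1441 of its nuclei Neurons, 290 Oligodendrocytes, 167 Astrocytes and 1 Vascular_smooth_muscle.

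**Figure D1:**
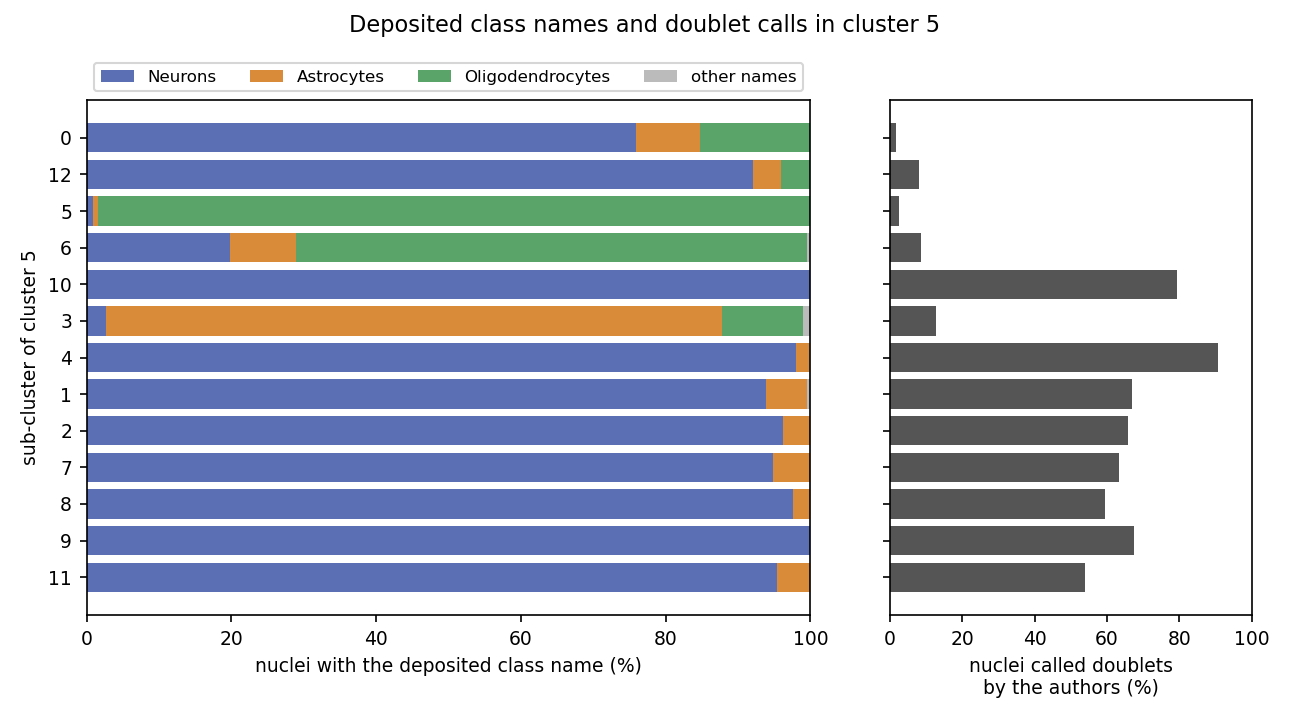
Left, the share of nuclei (%) of each sub-cluster of cluster 5 with each deposited class name; right, the share (%) the authors called doublets. Sub-cluster 0 is named Neurons in 75.9% of nuclei with 1.63% called doublets, whereas the other large groups named Neurons, sub-clusters 1, 2 and 4, have 67.0%, 65.7% and 90.7% called doublets.

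The name Neurons in sub-cluster 0 did not go with neuron RNA. Its nuclei named Neurons had Pdgfra at 807 CPM, Cspg4 at 354 CPM and Rbfox3, the NeuN antigen of mature neurons, at 26.2 CPM. Those named Oligodendrocytes had 902 CPM of Pdgfra, 334 CPM of Cspg4 and 26.0 CPM of Rbfox3. In sub-cluster 1, a neuron-rich part of the same cluster, Rbfox3 was at 531 CPM and Pdgfra at 3.82 CPM. The 167 nuclei of sub-cluster 0 named Astrocytes had 467 CPM of Pdgfra together with 3094 CPM of Slc1a2, the main astrocyte glutamate transporter, which was at 415 CPM in those named Neurons. The 13 inhibitory neuron markers summed to 4485 CPM in sub-cluster 0, of which Erbb4 made 2374 CPM and Adarb2 1637 CPM, while Gad2 was at 27.8 CPM. The annotation's own prediction score, from 0 to 1, had a median of 0.707 in the nuclei of sub-cluster 0 named Neurons and 1.00 in those named Neurons outside cluster 5.

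The detection of Pdgfra in single nuclei was compared next. A Pdgfra UMI was found in 67.8% of the nuclei of sub-cluster 0, and in 53.0% after thinning each nucleus to 1000 UMIs, which left out the 17.8% of nuclei with fewer. Nuclei named Neurons outside cluster 5 had one in 1.81% (0.455% thinned, median 3933 UMIs), and cluster 3, the main cluster of nuclei named Oligodendrocytes, in 0.645% (0.565% thinned, median 902 UMIs). Of the deposited clusters outside cluster 5, cluster 6 had the highest share, 8.39% (5.32% thinned, median 1122 UMIs), followed by cluster 7 with 6.17% (5.04% thinned, median 1067 UMIs). The share in sub-cluster 0 was above all of these, with Pdgfra among the genes that formed it. Within cluster 5, the unnamed sub-clusters 6 and 10 had shares of 67.2% (median 2302.5 UMIs) and 75.0% (median 6922.5 UMIs). After thinning these were 42.5% and 26.8%, below the 53.0% of sub-cluster 0. Whether Pdgfra in the other nuclei came from free RNA, doublets or their own expression was not tested. Of the 1466 nuclei of the whole series with at least 2 Pdgfra UMIs, 885 (60.4%) were in cluster 5 and 693 (47.3%) in sub-cluster 0. Of the 885, 637 (72.0%) were named Neurons and 187 (21.1%) Oligodendrocytes. The next clusters were 0, with 145 nuclei, and 2, with 131.

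**Figure D2:**
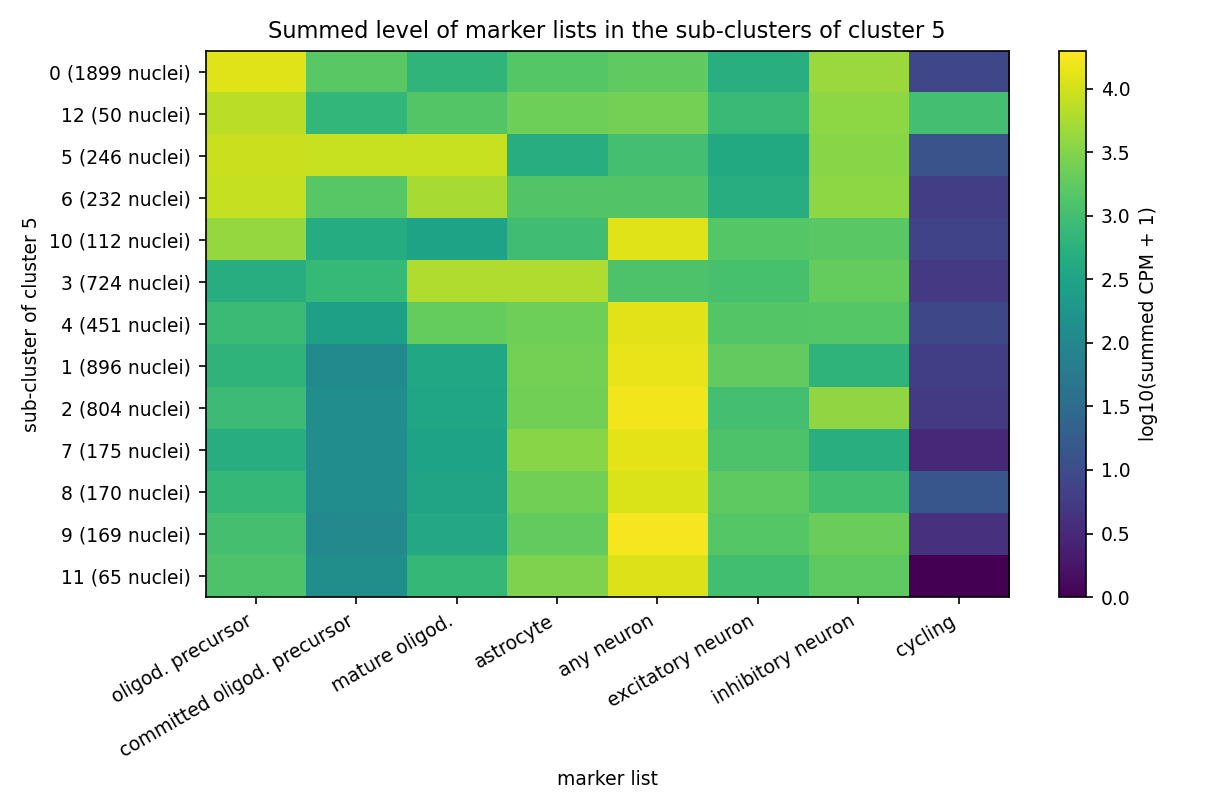
Summed level of 8 marker lists (columns; log10 of summed CPM plus 1) in the 13 sub-clusters of cluster 5 (rows, with their number of nuclei). The precursor sum is high in sub-clusters 0, 12, 5, 6 and 10, most of it from Tnr and Lhfpl3 (7020 CPM of Tnr but 13.4 CPM of Pdgfra and 25.2 CPM of Cspg4 in sub-cluster 5, and 1774 CPM of Lhfpl3 and 1557 CPM of Tnr in sub-cluster 10), and the 8 other sub-clusters carry neuron or astrocyte and oligodendrocyte genes.

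Later and dividing stages of the lineage were also present. Sub-cluster 5, with 246 nuclei, was committed oligodendrocyte precursor-like: Bmp4 stood at 221 CPM beside 1.97 CPM in the rest of cluster 5, Enpp6 at 836 CPM and Bcas1, an early marker of premyelinating cells, at 3730 CPM. The non-coding RNA 9630013A20Rik was among its 10 leading genes, at 4406 CPM beside 40 CPM in the rest of cluster 5. Pdgfra was low there, at 13.4 CPM, while Sox10, the lineage transcription factor, stood at 547 CPM and Mbp, a myelin protein gene, at 4555 CPM. Of these 246 nuclei, 242 were named Oligodendrocytes. Sub-cluster 12, with 50 nuclei, was cycling-like and kept Pdgfra at 526 CPM together with Top2a, the topoisomerase of dividing cells, at 629 CPM and Mki67 at 109 CPM. Of these 50, 46 were named Neurons.

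The other sub-clusters were left unnamed. Sub-cluster 6 (232 nuclei, 8.62% called doublets) held precursor genes at 8370 CPM in sum with mature oligodendrocyte genes at 5383 CPM, and sub-cluster 10 (112 nuclei, 79.5% called doublets) held 4092 CPM of precursor and 12451 CPM of general neuron genes. Sub-cluster 3 (724 nuclei, 617 named Astrocytes, 12.8% called doublets) had 6234 CPM of astrocyte and 6158 CPM of mature oligodendrocyte genes. Sub-clusters 1, 2, 4, 7, 8, 9 and 11 had between 11373 and 17232 CPM of general neuron genes with 1858 to 3472 CPM of astrocyte genes, and between 53.8% and 90.7% of their nuclei were called doublets. Their median of 4766 to 7047 UMIs was above the 1491 of sub-cluster 0. Among the 10 leading genes of sub-cluster 4 were the mature oligodendrocyte genes Mog and Aspa. They stood at 154 and 159 CPM, beside 68.7 and 72.0 CPM in the rest of cluster 5. Gad2 was among the 10 leading genes of sub-cluster 2 alone, at 120 CPM.

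No difference between the dosing groups was called in how many nuclei cluster 5 held. In the order of replicates 1, 4 and 5, its share of a library was 5.23%, 5.68% and 5.18% for ATV:BACE1 and 5.78%, 5.27% and 5.27% for OTV:Malat1. It was 5.47%, 5.20% and 5.97% in nonTV:Malat1, and 5.61% and 5.15% in Malat1 ASO replicates 1 and 5. All groups overlapped, and OTV:Malat1 stood at log2 0.02 ± 0.13 (SE) above ATV:BACE1 (edgeR quasi-likelihood test, adjusted p = 0.950 over the clusters). The other 4 contrasts lay between log2 -0.03 and 0.05, and in none did any cluster pass an adjusted p of 0.05.

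Precursor-like nuclei were few in every library and varied with the replicate number. By the same order of replicates, sub-cluster 0 made 1.64%, 2.22% and 1.19% of the nuclei for ATV:BACE1 and 2.21%, 1.84% and 1.35% for OTV:Malat1. It made 1.78%, 1.75% and 1.45% in nonTV:Malat1, and 2.30% and 1.40% in Malat1 ASO. Replicate 5 was the lowest of each group, and the groups overlapped. As a share of the UMIs of cluster 5, sub-cluster 0 ran from 6.84% to 19.5%, so sums over cluster 5 weigh the precursor-like nuclei differently from library to library.

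Malat1, the target, is a long intergenic non-coding RNA gene on the minus strand of chr19:5795690-5802672 (GRCm38, ENSMUSG00000092341.3 in the GENCODE annotation). Over all nuclei of cluster 5, and again in the order of replicates 1, 4 and 5, ATV:BACE1 had 7.83%, 8.04% and 9.31% of its UMIs on Malat1 and OTV:Malat1 had 4.68%, 3.87% and 4.98%. It took 7.68%, 8.15% and 9.32% in nonTV:Malat1, and 8.15% and 8.87% in Malat1 ASO replicates 1 and 5. Every OTV:Malat1 library lay below every other library, and the other 3 groups overlapped. Of all 14179 genes tested, 3.29%, 3.04% and 7.29% had OTV:Malat1 libraries wholly below those of ATV:BACE1, nonTV:Malat1 and Malat1 ASO. The mean of OTV:Malat1 was 53.8% of the control mean (exact two-sided permutation p = 0.1, the smallest that 3 libraries against 3 can give). Malat1 fell by 0.96 ± 0.12 on the log2 scale against ATV:BACE1 (SE, adjusted p = 0.0151, edgeR), and by the same 0.96 against nonTV:Malat1 (adjusted p = 0.0155) and against Malat1 ASO (adjusted p = 0.0450). For nonTV:Malat1 against ATV:BACE1 the difference was log2 -0.00 ± 0.12, and for Malat1 ASO it was 0.00 ± 0.14, neither being called.

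Malat1 was the 1 gene called in each OTV:Malat1 contrast of cluster 5, out of 14179 tested (0.00705%). With the replicate number as a block the drop against ATV:BACE1 had an adjusted p of 1.65e-10. Without called doublets it was log2 -0.81 ± 0.22 and not called (adjusted p = 1.00). Libraries were left out 1 at a time from the fit without the block, which ignores the pairing by replicate number. The call in that fit was lost without ATV:BACE1 replicate 5, nonTV:Malat1 replicates 4 or 5, or OTV:Malat1 replicates 1, 4 or 5. Adjusted p then ran from 0.136 to 0.537 (edgeR) and changes from -1.01 to -0.88.

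The fall of Malat1 was not shared evenly by the nuclei of cluster 5. In sub-cluster 0 the share of UMIs, in the same order of replicates, was 5.47%, 5.90% and 5.86% for ATV:BACE1 and 4.76%, 4.17% and 5.39% for OTV:Malat1. It took 5.78%, 6.21% and 6.40% in nonTV:Malat1, and 6.29% and 6.34% in Malat1 ASO. Both Malat1 ASO libraries lay above the 3 controls, with a mean 109.9% of theirs (exact permutation p = 0.2, the smallest that 2 against 3 can give), as did 8.29% of all 7054 genes, while nonTV:Malat1 overlapped the controls. The fitted changes of these groups against ATV:BACE1, log2 0.13 ± 0.12 and 0.10 ± 0.11, were not called (edgeR, adjusted p = 1.00 for both). The 3 OTV:Malat1 libraries again lay below all others, but the highest of them was close to the lowest control. Of all 7054 genes, 4%, 3.53% and 8% lay so against ATV:BACE1, nonTV:Malat1 and Malat1 ASO. Their mean was 83.1% of the control mean (exact permutation p = 0.1). The fitted change was log2 -0.28 ± 0.11 and was not called over the 7054 genes tested (edgeR, unadjusted p = 0.0141, adjusted p = 1.00, and 0.956 with the replicate block). Against nonTV:Malat1 the change was -0.38 ± 0.11 and against Malat1 ASO -0.41 ± 0.12. Neither was called without the block (adjusted p = 1.00 for both), and both were with it (adjusted p = 0.0158 and 0.0477).

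In the rest of cluster 5, Malat1 took 8.19%, 8.48% and 9.56% of the UMIs in ATV:BACE1 and 4.66%, 3.81% and 4.94% in OTV:Malat1, which do not overlap. It fell there by 1.04 ± 0.12 on the log2 scale (edgeR, adjusted p = 9.48e-04). The change in sub-cluster 0 was smaller by log2 0.80 ± 0.14 (edgeR interaction with the library as block, adjusted p = 1.30e-04), and by 0.76 with an adjusted p of 0.0519 without OTV:Malat1 replicate 4. Per library, the log2 ratio of the Malat1 share in sub-cluster 0 to that in the rest was -0.71 to -0.52 in the control and 0.03 to 0.13 in OTV:Malat1 (exact permutation p = 0.1). Under OTV:Malat1 the precursor-like nuclei thus had about the same Malat1 share as the nuclei around them, having started lower in the controls.

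**Figure D3:**
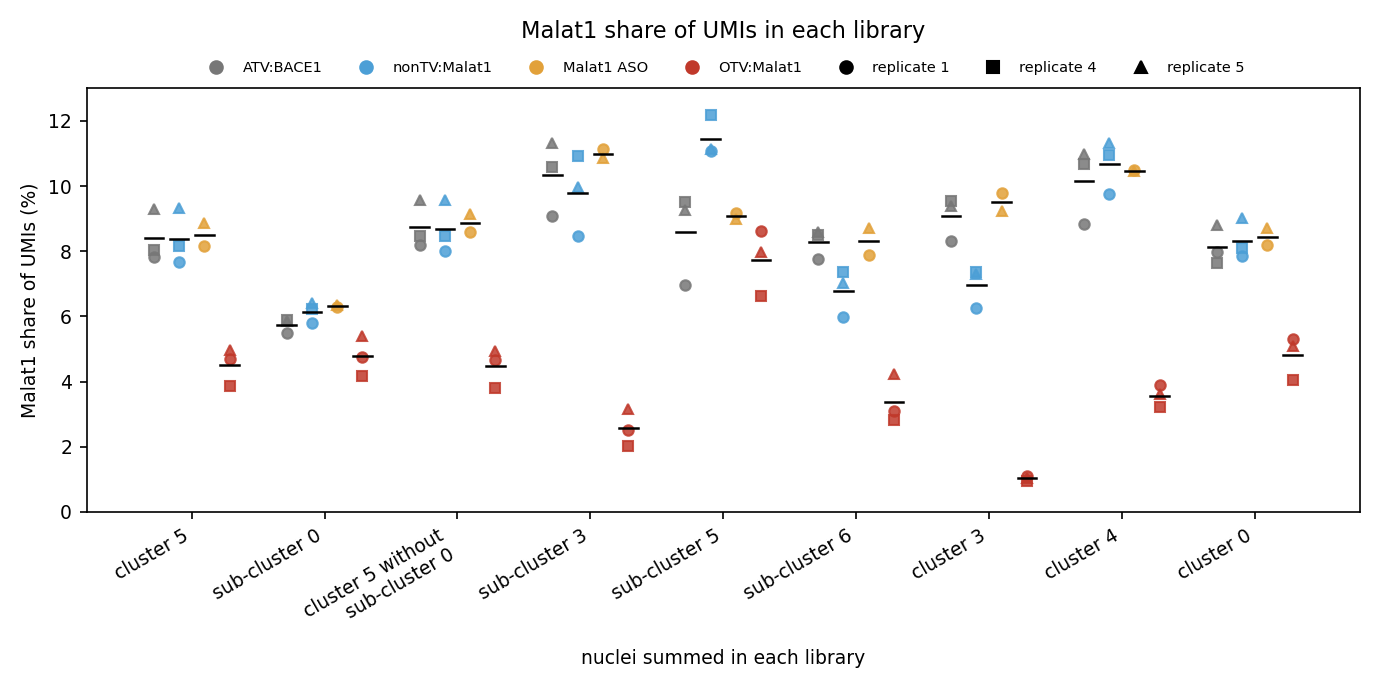
Malat1 share of UMIs (%) in each library (points, shaped by replicate number and coloured by dosing group; bars are group means). Nuclei were summed over cluster 5, its sub-clusters 0, 3, 5 and 6, cluster 5 without sub-cluster 0, and deposited clusters 3, 4 and 0. The OTV:Malat1 points fall to between 2.02% and 3.15% in sub-cluster 3 and stay between 4.17% and 5.39% in sub-cluster 0.

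Sub-cluster 3, with astrocyte and oligodendrocyte RNA together, showed the deepest fall among the sub-clusters tested. Malat1 took 9.09%, 10.6% and 11.3% of its UMIs in ATV:BACE1 and 2.51%, 2.02% and 3.15% in OTV:Malat1. The fall was 2.14 ± 0.12 on the log2 scale (edgeR, adjusted p = 2.79e-13), leaving 24.8% of the control mean. Sub-clusters 1, 2 and 4, rich in neuron RNA, fell by 1.03 ± 0.10, 1.00 ± 0.11 and 1.10 ± 0.10 (adjusted p = 1.55e-06, 2.15e-05 and 3.65e-09). Sub-cluster 4 also had the mature oligodendrocyte genes Mog and Aspa among its leading genes, and their part in its fall was not tested. In sub-clusters 1, 2, 3 and 4 the changes of nonTV:Malat1 and Malat1 ASO against ATV:BACE1 lay between log2 -0.08 and 0.07, none of them called.

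The smaller sub-clusters gave values with few nuclei. In the committed precursor-like sub-cluster 5, Malat1 took 6.96%, 9.52% and 9.28% in ATV:BACE1 (28, 19 and 16 nuclei) and 8.62%, 6.62% and 7.96% in OTV:Malat1 (33, 20 and 31 nuclei), so these groups overlapped. Too few libraries had 20 nuclei for a test against the control. Against Malat1 ASO, at 9.17% and 8.996%, OTV:Malat1 stood at log2 -0.23 ± 0.16 and was not called (edgeR, adjusted p = 1.00). In sub-cluster 6, which joins precursor and mature oligodendrocyte RNA, Malat1 took 7.77%, 8.50% and 8.58% in ATV:BACE1, 5.99%, 7.35% and 7.03% in nonTV:Malat1 and 3.11%, 2.82% and 4.23% in OTV:Malat1 (11 to 36 nuclei a library). It took 7.89% and 8.72% in Malat1 ASO. OTV:Malat1 fell by 1.30 ± 0.19 against Malat1 ASO (edgeR, adjusted p = 1.50e-08), a test of 2 libraries against 2, since OTV:Malat1 replicate 1, with 17 nuclei, was under the minimum of 20. The cycling-like sub-cluster 12 had 1 to 13 nuclei a library, too few to compare.

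By the deposited class name, the nuclei of cluster 5 named Astrocytes fell most. Malat1 took 8.54%, 9.94% and 10.7% of their UMIs in ATV:BACE1 and 3.30%, 2.68% and 3.75% in OTV:Malat1, a fall of 1.69 ± 0.11 (edgeR, adjusted p = 2.05e-12), Malat1 being the 1 gene called (0.0188% of 5316). Those named Neurons went from 7.80%, 7.81% and 9.19% to 4.73%, 3.93% and 5.05%, a fall of 0.91 ± 0.11 (adjusted p = 0.00539), again the 1 gene called (0.00737% of 13575). Without called doublets the change was log2 -0.67 ± 0.23 and not called (edgeR, adjusted p = 1.00). The call for those named Neurons was also lost on leaving out any 1 of the OTV:Malat1 libraries (replicates 1, 4 and 5), replicate 5 of ATV:BACE1 or replicate 4 of nonTV:Malat1, with adjusted p from 0.0518 to 0.127 and changes from -0.97 to -0.84. Those named Oligodendrocytes went from 6.81%, 8.27% and 8.84% to 5.87%, 4.51% and 5.53%. This last difference, log2 -0.63 ± 0.14, was not called (adjusted p = 0.384) and was called with the replicate block (adjusted p = 0.0366). Outside cluster 5 the name Oligodendrocytes went with another level: Malat1 took 8.36% to 9.55% of the UMIs in ATV:BACE1 and 1.09% to 1.54% in OTV:Malat1. Within sub-cluster 0, the nuclei named Neurons had 4.99%, 5.74% and 5.64% in ATV:BACE1 and 4.82%, 4.16% and 5.25% in OTV:Malat1, which overlap as groups but were lower in OTV:Malat1 in each of the 3 replicate pairs. The few named Astrocytes (9 to 24 nuclei a library), which carried Slc1a2, went from 7.50%, 7.54% and 7.60% to 4.66%, 4.24% and 6.11%.

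**Figure D4:**
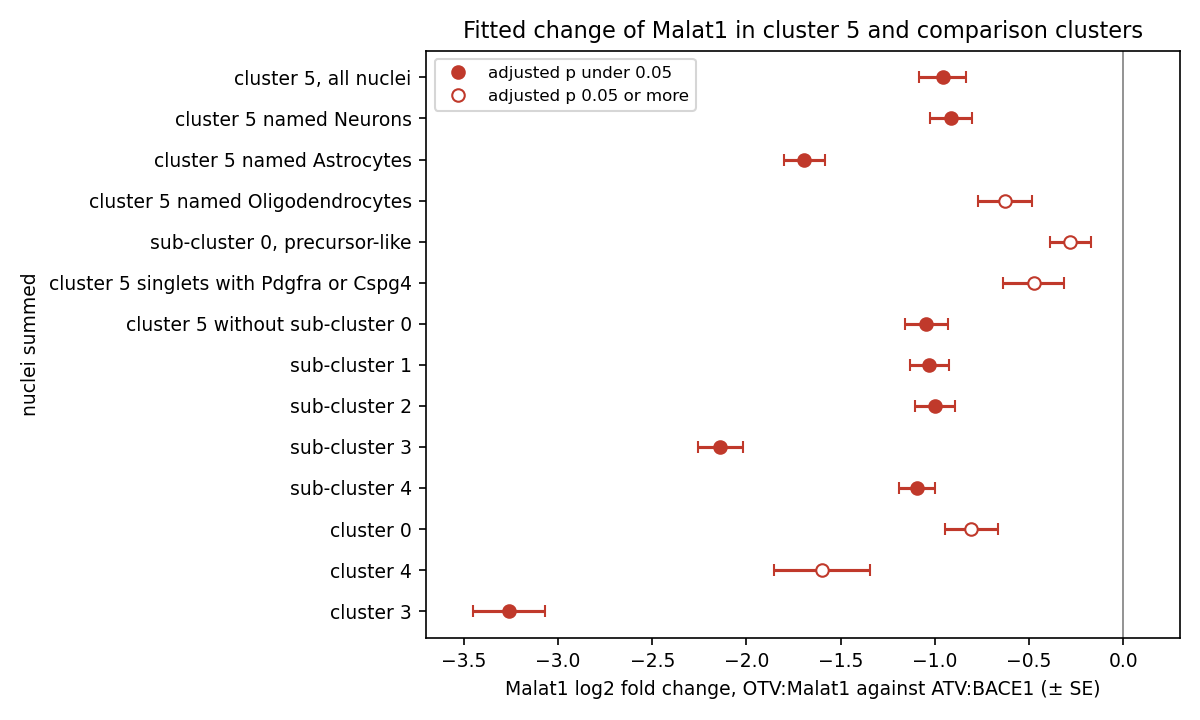
Fitted log2 fold change of Malat1, OTV:Malat1 against ATV:BACE1, with its SE (edgeR), for cluster 5, its parts by class name, sub-cluster or marker, and deposited clusters 0, 4 and 3; filled points passed an adjusted p of 0.05 over the genes of their own fit. Of the sets shown, the precursor-like sub-cluster 0 stands nearest to 0, at -0.28. The committed precursor-like sub-cluster 5 had too few nuclei for this test and is not shown.

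The fall in cluster 5 was then set against the deposited clusters with the most nuclei of each class. Malat1 fell by 3.26 ± 0.19 in cluster 3 (oligodendrocytes, edgeR adjusted p = 1.50e-09). In cluster 4 (astrocytes) it stood at -1.60 ± 0.26 (adjusted p = 0.0685) and in cluster 0 (neurons) at -0.81 ± 0.14 (adjusted p = 1.00), neither called in its own fit. The Malat1 shares still did not overlap in either. Cluster 4 had 8.82% to 10.98% in ATV:BACE1 and 3.21% to 3.88% in OTV:Malat1. Cluster 0 had 7.65% to 8.81% and 4.04% to 5.31% (exact permutation p = 0.1 for each cluster). The OTV:Malat1 means were 35.1% and 59.1% of the control means in clusters 4 and 0. The change in cluster 5 was smaller than in cluster 3 by 2.29 ± 0.14 (edgeR interaction, adjusted p = 6.46e-16) and smaller than in cluster 4 by 0.63 ± 0.10 (adjusted p = 0.00274). Its difference from cluster 0, log2 -0.15 ± 0.07, was not called (adjusted p = 1.00), although the log2 ratio of the Malat1 shares did not overlap between OTV:Malat1 (-0.18 to -0.030) and ATV:BACE1 (-0.027 to 0.079, exact permutation p = 0.1). In nonTV:Malat1, Malat1 took 6.24% to 7.37% of the UMIs of cluster 3 beside 8.31% to 9.53% in ATV:BACE1, or 76.8% of the control mean, at log2 -0.40 ± 0.18 (not called, edgeR adjusted p = 1.00). The difference of cluster 5 from cluster 3 in this contrast, 0.40 ± 0.14, was not called either (adjusted p = 1.00), with no overlap in the log2 ratio of the shares (exact permutation p = 0.1). Sub-cluster 0 alone, set against these clusters after the data were seen, changed less than cluster 3 by 2.98 ± 0.12 (adjusted p = 6.33e-38) and less than cluster 4 by 1.34 ± 0.12 (adjusted p = 1.05e-13). For nonTV:Malat1 its difference from cluster 3 was 0.52 ± 0.12, not called (adjusted p = 0.474) and again without overlap. For OTV:Malat1 its difference of 0.57 ± 0.16 from cluster 0 was not called over the 18321 genes (edgeR, unadjusted p = 4.40e-04, adjusted p = 1.00). Per library, the log2 ratio of the Malat1 share in sub-cluster 0 to that in cluster 0 was -0.16 to 0.08 in OTV:Malat1 and -0.59 to -0.38 in ATV:BACE1, which do not overlap (exact permutation p = 0.1), so a difference between these nuclei is not shown to be absent.

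Malat1 was also read nucleus by nucleus. Each nucleus was thinned to 1000 UMIs and called low when it had no more Malat1 UMIs than percentile 5 of the control nuclei, which was 36.6 UMIs in sub-cluster 0, 42.0 in cluster 5 and 72.9 in sub-cluster 3, so that low means a different level in each. In sub-cluster 0, low nuclei made 2.56% to 7.88% of the control libraries and 20.9% to 35.3% of the OTV:Malat1 libraries, with means of 5.22% and 25.7% (exact permutation p = 0.1). In cluster 5 as a whole the means were 5.71% and 51.2%, and in sub-cluster 3 they were 8.80% and 99.0% (exact permutation p = 0.1 for each). The threshold was set on the control libraries themselves, so these p-values do not treat the groups alike and are a description. In nonTV:Malat1 and Malat1 ASO the means over sub-cluster 0 were 5.86% and 2.72%, and over sub-cluster 3 they were 21.2% and 4.21%. The median nucleus of a library in sub-cluster 0 had 52 to 57 Malat1 UMIs of 1000 in the control and 42 to 52 in OTV:Malat1. In sub-cluster 3 it had 86 to 110 and 20 to 25.5. A share of 21.7% of the OTV:Malat1 nuclei of sub-cluster 0 lay within 5 UMIs of the threshold. Thinning left out 20.6% of the control and 20.8% of the OTV:Malat1 nuclei of sub-cluster 0, 7.87% and 9.96% of those of cluster 5, and 6.12% and 17.3% of those of sub-cluster 3.

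How the precursor nuclei were chosen changed the size of the fall. Nuclei of cluster 5 not called doublets and with a Pdgfra or Cspg4 UMI, a choice made after the data were seen, had Malat1 at 5.70%, 6.26% and 6.84% in ATV:BACE1 and 4.70%, 4.06% and 4.91% in OTV:Malat1. Their change was log2 -0.47 ± 0.16, not called (edgeR, adjusted p = 1.00). A looser choice, at least 2 UMIs over the 5 precursor markers and none on Gad1 and Gad2, took 246 to 388 nuclei a library and gave -0.89 ± 0.12 (adjusted p = 0.00620). Tnr and Lhfpl3 are in that choice, and both had UMIs in the neuron-rich sub-cluster 1, at 407 and 194 CPM.

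RNA of other cells was present in sub-cluster 0, with marker sums below those of clusters 3, 4 and 0. Its mature oligodendrocyte markers summed to 651 CPM beside 12961 CPM in cluster 3, its 8 astrocyte markers to 1469 CPM beside 10240 CPM in cluster 4, and its general neuron markers to 1779 CPM beside 17244 CPM in cluster 0. Ttr, the transthyretin gene of choroid plexus, stood at 992 CPM. The part that such RNA has in the Malat1 level of these nuclei was not tested. From these sums over nuclei, a few nuclei with much RNA of other cells and many nuclei with a little cannot be told apart.

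Beyond Malat1 no gene of cluster 5 passed the test in any of the 5 contrasts. Genes with an unadjusted p under 0.05, of 14179, numbered 250 (1.76%), 210 (1.48%) and 363 (2.56%) for OTV:Malat1, nonTV:Malat1 and Malat1 ASO against ATV:BACE1. For OTV:Malat1 against nonTV:Malat1 and Malat1 ASO they numbered 209 (1.47%) and 229 (1.62%). All these shares are below the 0.05 that a calibrated test gives where nothing changes. This fit leaves out the pairing by replicate number, and none called in it does not show that nothing changed. DESeq2 called Malat1 in the same 3 contrasts. With the replicate block, 5 genes were called for OTV:Malat1 against ATV:BACE1: Malat1 and, higher in OTV:Malat1, 9630013A20Rik, Pik3r3, Sulf2 and Bcas1. The same fit called 10 genes for Malat1 ASO against ATV:BACE1, all higher: Homer1, Gm47283, Sulf2, Vcan, Pik3r3, Bcas1, Bfsp2, 1700016P03Rik, Shc4 and Arhgap31. It added Ttr to Malat1 for OTV:Malat1 against nonTV:Malat1 (lower) and Slc6a20a to Malat1 for OTV:Malat1 against Malat1 ASO (higher).

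Of these, 9630013A20Rik and Bcas1 were high in the committed precursor-like nuclei. 9630013A20Rik stood in cluster 5 at 91.8, 136 and 96.0 CPM in ATV:BACE1 (replicates 1, 4 and 5) but at 249.5, 202 and 142 CPM in OTV:Malat1, which do not overlap. Its change was log2 0.88 ± 0.26 (edgeR, adjusted p = 1.00, and 6.07e-04 with the block), and 5.99% of all genes had groups that did not overlap in this contrast. Bcas1 stood at 232, 228 and 169 CPM in ATV:BACE1 and 331.5, 319.7 and 215 CPM in OTV:Malat1, which overlap, at log2 0.46 ± 0.20 (adjusted p = 1.00, and 0.0451 with the block). In Malat1 ASO it was at 361 and 221 CPM. Within sub-cluster 0, 9630013A20Rik stood at 55.9 to 95.6 CPM in ATV:BACE1 and 64.7 to 82.7 CPM in OTV:Malat1, which overlap. The share of the UMIs of cluster 5 that came from sub-cluster 5 was 2.43%, 2.00% and 1.46% in ATV:BACE1 and 3.75%, 3.32% and 2.44% in OTV:Malat1. It was 3.604% and 2.54% in Malat1 ASO (replicates 1 and 5), also above all 3 controls, and 2.04%, 2.20% and 1.55% in nonTV:Malat1, which overlap the controls. The OTV:Malat1 share of sub-cluster 5 was higher than that of the control in each of the 3 replicate pairs. That of Malat1 ASO was higher in both of its pairs. The same held for OTV:Malat1 in the unnamed sub-clusters 6 and 10. Counted by nuclei, sub-cluster 5 made 4.67%, 3.37% and 3.19% of cluster 5 in ATV:BACE1. It made 5.41%, 5.03% and 4.25% in OTV:Malat1 and 5.44% and 4.32% in Malat1 ASO, so both overlap the controls. The part of this share in the levels of these genes was not tested.

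**Figure D5:**
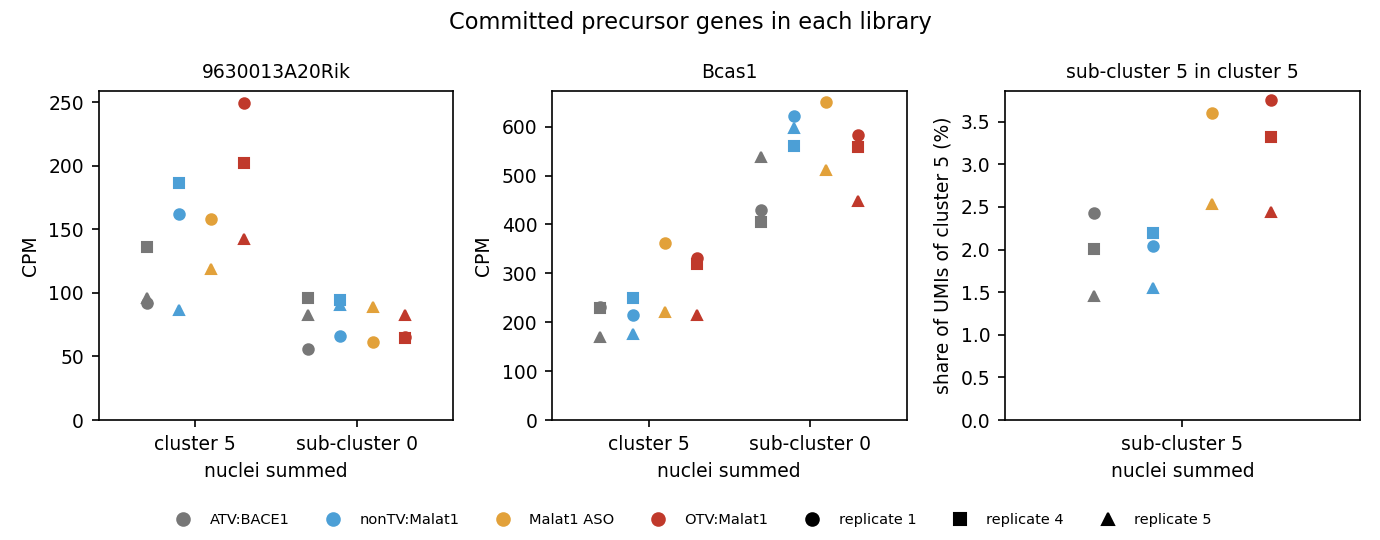
Left and middle, CPM of 9630013A20Rik and Bcas1 in each library for cluster 5 and for sub-cluster 0; right, the share (%) of the UMIs of cluster 5 that came from sub-cluster 5. In cluster 5, 9630013A20Rik runs from 91.8 to 136 CPM in ATV:BACE1 and from 142 to 249.5 CPM in OTV:Malat1, and the share of sub-cluster 5 shows the same order of these groups within each replicate number.

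In sub-cluster 0 the test called 1 of 7054 genes in 1 contrast (0.0142%), Gm47283, higher in Malat1 ASO than in ATV:BACE1. It stood at 212 and 112 CPM in Malat1 ASO replicates 1 and 5 and at 47.1, 6.37 and 55.1 CPM in ATV:BACE1 replicates 1, 4 and 5, a difference of log2 2.34 ± 0.41 (edgeR, adjusted p = 0.0201). At an unadjusted p under 0.05 this contrast had 200 genes (2.84%). The call was lost without ATV:BACE1 replicate 4 or without Malat1 ASO replicate 1. Gm47283 is annotated on the Y chromosome, and the female replicate 1 libraries carried it too, so reads of a near-identical copy cannot be told apart from its own. In the other 4 contrasts no gene was called, and DESeq2 called none. There 172 (2.44%) and 159 (2.25%) genes had an unadjusted p under 0.05 for OTV:Malat1 and nonTV:Malat1 against ATV:BACE1, and 149 (2.11%) and 166 (2.35%) for OTV:Malat1 against nonTV:Malat1 and Malat1 ASO. These shares are also below 0.05, and this fit too leaves the pairing out. With the block, Gm47283 was also called for OTV:Malat1 against ATV:BACE1 (adjusted p = 0.0405) and Ttr for OTV:Malat1 against nonTV:Malat1 (lower, adjusted p = 0.00547).

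The gene lists were read next within sub-cluster 0, where OTV:Malat1 against ATV:BACE1 called 0 of all 7054 genes (0%), Malat1 included. None called in a list was therefore certain there, and does not show whether its genes changed. None of the 20 precursor identity genes was called, and their median change was log2 -0.00 beside 0.00 over all genes. Pdgfra stood at 736, 832 and 730 CPM in ATV:BACE1 and 773, 902 and 779 CPM in OTV:Malat1, which overlap as groups but were higher in OTV:Malat1 in each of the 3 replicate pairs. The share of all 7054 genes that were higher in all 3 pairs is not given here, so no rise of Pdgfra is shown. Lhfpl3, with log2 -0.01 ± 0.15, and Tnr, with 0.05 ± 0.16, also overlapped as groups. These genes also helped to form the sub-cluster. Summed over cluster 5, the same 20 genes had a median of log2 0.19 with none called, and sub-cluster 0 made 13.3%, 17.0% and 6.84% of the UMIs in ATV:BACE1 and 18.5%, 16.4% and 9.80% in OTV:Malat1.

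Of the 14 committed precursor genes, 9 were tested in sub-cluster 0, with a median of log2 -0.03. Neu4, a sialidase of this lineage, stood at 193 to 223 CPM in ATV:BACE1 and 228 to 254 CPM in OTV:Malat1, log2 0.20 ± 0.20, without overlap and not called (7.19% of all genes did not overlap). In cluster 5 all 14 were tested, none was called without the block and their median was log2 0.29. Of the 24 signalling genes, 21 were tested in sub-cluster 0, with a median of 0.00. Erbb4, a neuregulin receptor, stood at 0.12 ± 0.17, and Gria2 and Gria4, subunits of the AMPA glutamate receptors through which precursors sense neurons, at 0.09 ± 0.17 and 0.00 ± 0.20.

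For genes around the target and its handling, values are given over cluster 5, where Malat1 was the 1 gene called of 14179 (0.00705%) in OTV:Malat1 against ATV:BACE1, so that none called in a list is the background. Neat1, the neighbouring non-coding RNA that builds paraspeckles, stood at 149 to 167 CPM in ATV:BACE1 and 129 to 182 CPM in OTV:Malat1 over cluster 5, log2 -0.04 ± 0.15. The paraspeckle proteins Sfpq, Pspc1 and Nono stood at 0.00 ± 0.15, -0.05 ± 0.12 and 0.10 ± 0.17. In all, 10 of these 11 genes were tested in cluster 5 with none called. Of the 20 nucleic acid sensing and interferon genes, 7 were tested and none was called, with a median of log2 0.07 and Stat2 and Irf3 at 0.01 ± 0.17 and 0.07 ± 0.20. Of the 11 uptake and RNase H genes, 9 were tested with none called: Tfrc, the mouse transferrin receptor gene, was at 28.9 to 35.9 CPM in ATV:BACE1 and 26.1 to 29.1 CPM in OTV:Malat1, and Rnaseh1, the enzyme that cuts ASO-bound RNA, stood at 0.29 ± 0.24. How the labelled knock-in of the human receptor bears on the reads assigned to Tfrc was not tested. Of the 16 cell cycle genes, 8 were tested in cluster 5 with none called and a median of -0.01.

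The genes with the smallest p after Malat1 were mostly rare in cluster 5 and none of them was called. Between OTV:Malat1 and ATV:BACE1 these were Gfra4, Ulk3, Dus1l, Nox4 and Gm17259, with log2 changes from -1.54 to 2.31 and group means from 0.819 to 9.999 CPM. For nonTV:Malat1 against ATV:BACE1 they were Atg101, Nox4, Plpp7, Crispld1 and Recql. For Malat1 ASO against ATV:BACE1 they were Zdbf2, Rasgrf2, Gm47423, Tubg2 and Tsc22d3. For OTV:Malat1 they were Otx2os1, Gm38825, Fmo1, Gemin8 and Col24a1 against nonTV:Malat1, and Hoga1, Cep131, Grm4, Slco4c1 and Slc6a20a against Malat1 ASO. Nox4 was in both lists against ATV:BACE1, which share the 3 control libraries, at 0.819 CPM there and at 4.17 CPM in OTV:Malat1 and 4.12 CPM in nonTV:Malat1. In sub-cluster 0, those for OTV:Malat1 against ATV:BACE1 were Gm47283, Spata13, Lman2l, Gucy1a1 and Sfi1, with log2 changes from -1.49 to 1.54.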

How the data were processed

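Single-nucleus RNA libraries of the posterior brain (per the labels) from 11 mice, 1 library each, were analysed; replicate 4 of Malat1 ASO was not analysed here. Per the submitters' processing notes, Cell Ranger 5.0.0 and Seurat 4 were used with mm10; the doublet caller, the filters, and whether the authors' clustering used Malat1 are not given in any source used here. The authors deposited a matrix of UMI counts for 25938 gene symbols with no normalization. Its column sums equalled the deposited UMI total in 110304 nuclei. The authors' metadata give the mitochondrial percent, the class prediction score as a fraction, the class name, cluster, doublet call and batch.

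The members and gene lists were chosen with earlier results of these data known. Counts were summed per library over cluster 5 and its parts (at least 20 nuclei in 2 libraries of each group compared) and tested with edgeR 4.0.16 (glmQLFit, TMM, filterByExpr) in R 4.3.3, all 4 groups in 1 fit, with Benjamini-Hochberg adjustment over all genes at 0.05. Shares and CPM in the text are of the summed UMIs, with CPM for gene tests on TMM-scaled totals. Differences between changes were interactions with the library as block. The nuclei of cluster 5 were clustered again (2000 variable genes, 30 principal components, 15 neighbours, Leiden resolution 0.5, leidenalg 0.10.2) and a sub-cluster named when 2 of its top 10 genes and 3 detected genes were markers of 1 type and at most 50% of its nuclei were called doublets. Doublets were kept. Scripts were tested on simulated data. P-values of group comparisons measure the spread between these mice. Those of the interactions measure the spread, over the mice, of the difference within a library.

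Replicate numbers pair the samples: they coincide with the deposited batch, and same-numbered libraries had correlated deviations in cluster 5 (r from 0.454 to 0.774, 15 pairs; different numbers -0.677 to 0.317, 30 pairs). The block is given where it changed a call. Named are Malat1, the markers, per contrast up to 15 called genes in each direction and, where fewer than 5 were called, the 5 other genes with the smallest p, the leading genes, and the most abundant genes of each list. Genes called with the block alone were named after their values were seen. The alternatives were DESeq2 1.42.0, no TMM, Malat1 left out of the library size, no filter, the block, no doublets, nuclei of at least 1000 UMIs, other thinning depths and percentiles, other definitions of precursors, and each library left out.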

Additional observations from a re-analysis of the deposited data

Results flagged for a closer look

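Differences between the Malat1 change of one set of nuclei and that of another, OTV:Malat1 against ATV:BACE1, passed the test of the difference itself in 5 cases (edgeR interaction with the library as block). Sub-cluster 0, the precursor-like nuclei, changed less than the rest of cluster 5 by log2 0.80 ± 0.14 (adjusted p = 1.30e-04). Cluster 5 changed less than cluster 3, the oligodendrocytes, by 2.29 ± 0.14 and less than cluster 4, the astrocytes, by 0.63 ± 0.10 (adjusted p = 6.46e-16 and 0.00274). Sub-cluster 0 changed less than cluster 3 by 2.98 ± 0.12 and less than cluster 4 by 1.34 ± 0.12 (adjusted p = 6.33e-38 and 1.05e-13). In each case the 3 OTV:Malat1 libraries and the 3 control libraries did not overlap in the log2 ratio of the shares. The same lack of overlap was seen in the 2 differences that were not called, those of cluster 5 and of sub-cluster 0 from cluster 0, the neurons (exact permutation p = 0.1 in all 7), so it does not set the called ones apart.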

How the results depend on the processing

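Replicate numbers pair the libraries, and the replicate block moved the genes called in cluster 5 to 5 for OTV:Malat1 against ATV:BACE1, 10 for Malat1 ASO against ATV:BACE1, and 2 each for OTV:Malat1 against nonTV:Malat1 and Malat1 ASO. In sub-cluster 0 it called Malat1 at -0.38 and -0.42 in those last 2 contrasts (adjusted p = 0.0158 and 0.0477) and moved the counts of OTV:Malat1 against ATV:BACE1, nonTV:Malat1 and Malat1 ASO to 1, 2 and 1. Nuclei named Oligodendrocytes were called with it, at -0.62. It changed no other call.

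Without called doublets, Malat1 in cluster 5 stood at -0.81, -0.84 and -0.92 in the 3 OTV:Malat1 contrasts with 0 genes called, and at -0.67 in nuclei named Neurons. With Malat1 left out of the library size it stood at -0.95 against nonTV:Malat1 and -0.96 against Malat1 ASO, with 0 genes called in both. With no filter on low counts, 4, 4, 2 and 4 genes were called in cluster 5 for OTV:Malat1 against ATV:BACE1, Malat1 ASO against ATV:BACE1, and OTV:Malat1 against nonTV:Malat1 and Malat1 ASO. Without TMM, 0 genes were called in sub-cluster 0 for Malat1 ASO against ATV:BACE1. Precursors chosen by at least 2 UMIs on markers gave -0.89, which was called. The cause of these changes was not tested.

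Values near 0 changed sign: Malat1 in cluster 5 for nonTV:Malat1 against ATV:BACE1 (0.035 without called doublets) and Malat1 ASO against ATV:BACE1 (-0.019 with the replicate block). So did the share of nuclei in cluster 5: -0.018 (OTV:Malat1 against ATV:BACE1), -0.0086 (Malat1 ASO against ATV:BACE1) and -0.0092 (OTV:Malat1 against Malat1 ASO) with TMM over clusters, -0.0041 with the block for Malat1 ASO against ATV:BACE1, and -0.20 without called doublets for OTV:Malat1 against Malat1 ASO.

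Each of the 11 libraries was left out in turn, from fits without the replicate block. Malat1 in cluster 5 then ran from -1.03 to -0.88 against ATV:BACE1, from -1.02 to -0.89 against nonTV:Malat1 and from -1.01 to -0.88 against Malat1 ASO, with 0 to 1 genes called in each. The call was lost in 6, 6 and 9 of the 11: against nonTV:Malat1 without the same libraries as against ATV:BACE1, and against Malat1 ASO also without nonTV:Malat1 replicate 1 or either Malat1 ASO library. It ran from -0.076 to 0.066 for nonTV:Malat1 and from -0.075 to 0.067 for Malat1 ASO against ATV:BACE1. Nuclei named Neurons ran from -0.98 to -0.84, with the call lost when any OTV:Malat1 replicate, replicate 5 of ATV:BACE1 or replicate 4 of nonTV:Malat1 was left out. In sub-cluster 0, 0 to 1 genes were called for Malat1 ASO against ATV:BACE1. The difference between sub-cluster 0 and the rest ran from 0.70 to 0.86. The share of nuclei ran from -0.025 to 0.064, -0.0078 to 0.093 and -0.057 to 0.065 for OTV:Malat1, nonTV:Malat1 and Malat1 ASO against ATV:BACE1, and from -0.073 to 0.029 and -0.044 to 0.078 for OTV:Malat1 against nonTV:Malat1 and Malat1 ASO. The falls in sub-clusters 1, 2, 3 and 4 and in nuclei named Astrocytes kept their call in all 11.

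Group sizes of 3 and 2 bound the exact tests at 0.1 and 0.2. Sub-clusters 5 to 12 had too few nuclei for a test against the control. Most nuclei outside sub-clusters 0, 3, 5, 6 and 12 were called doublets, so their class is uncertain.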
